A study of Mus musculus with 2 samples.

Results

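The fibrillar collagens and interstitial matrix genes described here were 10 genes: Col1a1, Col1a2, Col3a1, Col5a1, Col5a2, Col6a1, Col6a2, Dcn, Lum and Sparc. They were chosen by name, by taking every non-control probe that carried 1 of these symbols in both scanner tables. This gave 19 of 41174 probes, and 7 of the 10 genes were bright enough to be among the 6195 genes compared. RNA of the Lgr6-high cells came from dorsal skin of Lgr6-EGFP-ires-CreERT2 knock-in mice, and RNA of the Lgr5-high cells from dorsal skin of Lgr5-EGFP-ires-CreERT2 knock-in mice. In each line green fluorescent protein marks cells in which that gene's promoter is active, and the cells with bright fluorescence were sorted. Per the labels' protocols, 3 mice were pooled for each sort, and all groups carry the CreERT2 cassette. Age and sex of the mice are not given in the sources used here.

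The samples were 2 two-colour arrays of opposite dye orientation, on which Lgr6-high RNA carried Cy5 on array 1 and Cy3 on array 2, and Lgr5-high RNA the other dye. Whether the arrays held different RNA pools is not said in the labels, so they were counted as 1 replicate measured with both dyes, and no test of the populations was possible. Ratios below are log2 of Lgr6-high over Lgr5-high, negative where the Lgr5-high cells had more, and each SD is over the 2 arrays and holds no spread between animals. Signals are mean spot intensities on the linear scanner scale, without background subtraction. A gene was called when its mean ratio was 1 or more in size (2-fold) and each array alone gave 0.5 or more with that sign.

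Fibrillar collagens are triple helices of long chains in which glycine recurs at a fixed step, and they form the tensile fibres of the dermis. Type I fibres are built from the products of Col1a1 and Col1a2 and type III from that of Col3a1, while type V collagen, from Col5a1 and Col5a2, takes part in starting fibrils and limiting their width. Type VI collagen, from Col6a1 and Col6a2 among others, forms beaded filaments, decorin (Dcn) and lumican (Lum) are small proteoglycans on the fibril surface, and Sparc is a secreted collagen-binding glycoprotein. In skin these genes are chiefly known as products of dermal fibroblasts, whereas Lgr5 and Lgr6 mark epithelial stem cells of the hair follicle.

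The result rests on a few 60-base oligonucleotides, and probes of 1 gene did not read alike. The deposited tables give the sequences below, written 5′ to 3′ and named by the base of the transcript at which the probe starts. They are shown because the Col1a1 and Col5a1 probes gave different ratios for 1 gene, and because the Col1a2, Col3a1 and Dcn probes carried the other large ratios. Capitals in the Col5a1 probe at base 2823 mark 6 triplets GGN spaced 9 bases apart, and GGN is a codon of glycine. Of the probes at bases 4602, 4493 and 6263 the first 30 bases are given.
Col1a1, base 228: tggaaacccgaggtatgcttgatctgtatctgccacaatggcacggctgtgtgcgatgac
Col1a1, base 3909: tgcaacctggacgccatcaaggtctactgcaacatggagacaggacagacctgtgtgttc
Col1a1, base 4602: ttttcctttgcattcacctttcaaacttag
Col1a2, base 4218: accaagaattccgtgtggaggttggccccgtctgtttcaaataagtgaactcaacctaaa
Col3a1, base 4493: ataagccaaactctctgaaaccccagcaaa
Col5a1, base 2823: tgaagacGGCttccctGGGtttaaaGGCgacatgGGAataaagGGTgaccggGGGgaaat
Col5a1, base 6263: cctgaccttcaaaagatgttctgaggtggt
Dcn, base 1213: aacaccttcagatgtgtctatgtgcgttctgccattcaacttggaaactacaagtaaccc
Sparc, base 980: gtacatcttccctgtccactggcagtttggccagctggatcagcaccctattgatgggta

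On build mm9 the Col1a1 probes lie on the plus strand at chr11:94799277-94799336, chr11:94812052-94812111 and chr11:94813075-94813134. The Col1a2 probe lies at chr6:4490619-4490678, the Col3a1 probe at chr1:45405589-45405648 and the Dcn probe at chr10:96980233-96980292, all on the plus strand. The Col5a1 probe at base 6263 lies at chr2:27892892-27892951. The Col5a1 probe at base 2823 spans 2424 bases of the genome, chr2:27842243-27844666, and the Sparc probe at base 980 spans 2658 bases, chr11:55209449-55212106 on the minus strand. Both therefore cross at least 1 splice junction. Exon numbers were not analysed here.

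After loess, all 7 matrix genes that could be compared had a negative ratio on both arrays (with median centring Sparc was positive on array 2), and 5 of them were called higher in Lgr5-high cells: Col1a1, Col1a2, Col3a1, Col5a1 and Dcn. None was called higher in Lgr6-high cells. Over all genes compared, 4.76% were called higher in Lgr5-high cells and 7.28% in Lgr6-high cells, and 38.6% had a negative ratio on both arrays. The median ratio of the 7 genes was -2.15, with -1.77 on array 1 and -2.53 on array 2, beside -0.05 over all genes compared. The probe that stood for Sparc passed the filter on dim probes through both populations. Those that stood for the other 6 genes passed through the Lgr5-high cells alone. Col5a1 had a further probe, at base 2823, that passed through the Lgr6-high cells alone. The filter thus selected the probes standing for 6 genes for a bright Lgr5-high signal, so the count and median over the 7 genes are a description only. In sorted bulk RNA, fewer cells of a type and less RNA per cell cannot be told apart.

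**Figure D1:**
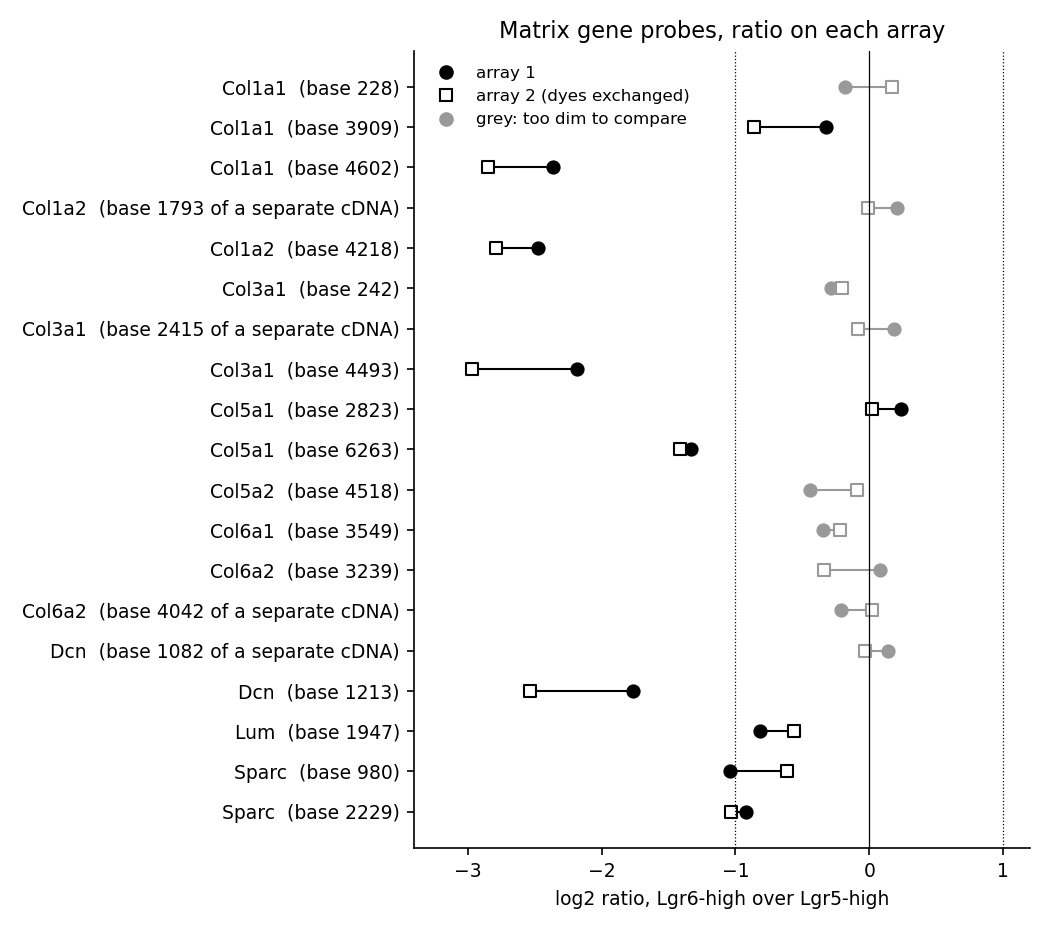
Log2 ratio of Lgr6-high over Lgr5-high for each of the 19 matrix gene probes on array 1 (filled circles) and array 2 (open squares), with probes too dim to compare in grey and dotted lines at the 2-fold minimum. The most negative probes of Col1a1, Col1a2, Col3a1 and Dcn lie between -2.97 and -1.77, and the grey probes lie around 0.

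As processed here, the brightest probes of the genes of type I collagen gave nearly equal ratios. As a mean over passing probes Col1a1 had -1.60, against -2.63 for Col1a2. The Col1a1 probe at base 4602, a probe near the end of the transcript and printed in 10 spots, had signals of 158 (Cy5) and 143 (Cy3) in Lgr6-high cells, against 1343 (Cy3) and 372 (Cy5) in Lgr5-high cells on arrays 1 and 2. Its ratio was -2.37 on array 1 and -2.85 on array 2, a mean of -2.61 ± 0.34 or 6.09-fold higher in Lgr5-high cells. Within each dye the Lgr5-high signal was the higher one, and the Lgr6-high signal was well above background on array 2 alone. The 10 spots show the technical spread within an array. Their ratios ran between -2.53 and -2.01 on array 1 (SD 0.16) and between -3.20 and -2.57 on array 2 (SD 0.20). The Lgr6-high signals of these spots lay between 151 and 167 on array 1, against 1133 to 1499 for Lgr5-high, and between 133 and 155 on array 2, against 328 to 424 for Lgr5-high. No spot of 1 population overlapped those of the other on the same array, but the dyes differ there. On array 2 even negative controls were higher in Cy5 (median 152) than in Cy3 (95th percentile 99.6). The lack of overlap there therefore does not compare the populations.

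Col1a2, the partner chain of type I collagen, had signals of 166 (Cy5) and 195 (Cy3) in Lgr6-high cells, against 1697 (Cy3) and 421 (Cy5) in Lgr5-high cells. Its ratio was -2.47 on array 1 and -2.79 on array 2, a mean of -2.63 ± 0.22 or 6.19-fold higher in Lgr5-high cells. The difference between the mean ratios of Col1a1 and Col1a2 was smaller than the SD of either. Here too the Lgr6-high cells were well above background on 1 array, so that some Col1a1 and Col1a2 signal was measured in them.

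Col3a1, the chain of type III collagen, was not well above background in Lgr6-high cells on either array. Its signals were 150 (Cy5) and 104 (Cy3) in Lgr6-high cells, against 767 (Cy3) and 337 (Cy5) in Lgr5-high cells. Its ratio was -2.18 on array 1 and -2.97 on array 2. The fold has only a lower bound: as processed here, the Lgr5-high cells had at least 5.28-fold more Col3a1. Such a bound divides the Lgr5-high level by the Lgr6-high level of the dim probe. That level is raised to the lowest level that counted as well above background where it lay under it. Here and below, a bound holds for the processing as reported and the mean of both arrays, not for each array or setting. For Col3a1 the ratio was -1.62 without background subtraction and -1.31 with the background model fitted on all spots.

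Col5a1, a chain of type V collagen, was called from its probe at base 6263. Its signals were 161 (Cy5) and 193 (Cy3) in Lgr6-high cells, against 592 (Cy3) and 247 (Cy5) in Lgr5-high cells. The ratio was -1.33 on array 1 and -1.42 on array 2, a mean of -1.38 ± 0.06 or 2.59-fold higher in Lgr5-high cells. The Lgr6-high signal was well above background on array 2 alone, so that the array 1 ratio rests on a Lgr6-high signal at the level of negative controls. Col5a1 lost its call under 4 other settings. Its ratio was -0.91 without background subtraction, -0.76 with the background model fitted on all spots and -0.62 as a mean over its passing probes. With median centring in place of loess it was -2.76 on array 1 and -0.19 on array 2.

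The proteoglycan gene Dcn had signals of 163 (Cy5) and 110 (Cy3) in Lgr6-high cells, against 779 (Cy3) and 291 (Cy5) in Lgr5-high cells. Its ratio was -1.77 on array 1 and -2.53 on array 2. Dcn was not well above background in Lgr6-high cells on either array. As processed here the Lgr5-high cells had at least 4.14-fold more, but the ratio was -1.05 with the background model fitted on all spots. Lum, a related proteoglycan gene, was dim in both populations. It had signals of 153 (Cy5) and 94.1 (Cy3) in Lgr6-high cells, neither well above background, against 185 (Cy3) and 178 (Cy5) in Lgr5-high cells. The ratio was -0.82 on array 1 and -0.56 on array 2, and Lum was not called. As processed here this bounds the excess in Lgr5-high cells at 1.57-fold or more, but without background subtraction the ratio was -0.32.

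Unlike the probes that stood for the other 6 genes, that of Sparc was well above background in both populations on both arrays. Its probe at base 980 had signals of 178 (Cy5) and 506 (Cy3) in Lgr6-high cells, against 689 (Cy3) and 276 (Cy5) in Lgr5-high cells. The ratio was -1.04 on array 1 and -0.61 on array 2, a mean of -0.83 ± 0.30 or 1.77-fold higher in Lgr5-high cells. A further Sparc probe at base 2229 had ratios of -0.92 and -1.03, a mean of -0.97 ± 0.08. Neither met the 2-fold minimum. The direction of Sparc on array 2 depended on the normalisation, since with median centring in place of loess its ratio was -2.63 on array 1 and 1.08 on array 2. Sparc was the only matrix gene left when both populations had to be above background on both arrays, and no matrix gene was called then.

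**Figure D2:**
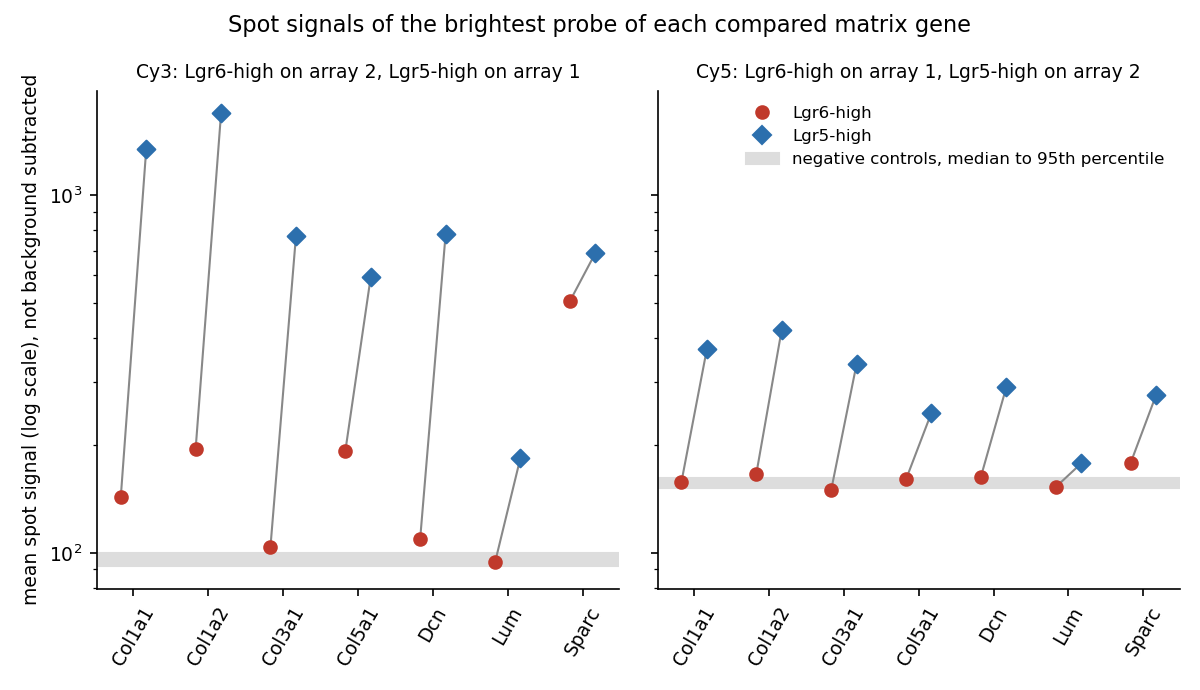
Mean spot signal on a log scale for the 7 compared matrix genes, each by its brightest passing probe, with Lgr6-high (red circles) and Lgr5-high (blue diamonds) joined within each dye and grey bands from the median to the 95th percentile of negative control spots. In Cy3 Col1a1 has 143 for Lgr6-high against 1343 for Lgr5-high cells, and in Cy5 most Lgr6-high points lie in or beside the band.

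The dyes limited how low a level could be seen. The 95th percentile of negative controls was 162 for Cy5 on array 1, where the Lgr6-high RNA carried Cy5, and 99.6 for Cy3 on array 2. In Cy5 the Lgr6-high signals of Col1a1, Col3a1, Col5a1 and Lum lay at or under that percentile. In Cy3 only that of Lum did, while Col3a1 (104) and Dcn (110) lay just over it. The Lgr5-high signals of all 7 genes lay over the percentile in both dyes, which was 100.3 for Cy3 on array 1 and 160 for Cy5 on array 2. For all of them but Sparc this was largely set by the filter. It kept their probes only because the Lgr5-high signal was well above background on both arrays.

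Col5a2, Col6a1 and Col6a2 could not be compared. The Col5a2 probe, for the second chain of type V collagen, was not well above background in either population and had a ratio of -0.27 ± 0.25. The Col6a1 probe had signals of 159 (Cy5) and 112 (Cy3) in Lgr6-high cells, against 148 (Cy3) and 161 (Cy5) in Lgr5-high cells, and a ratio of -0.28 ± 0.09. It was well above background for each population in Cy3 alone. The brighter Col6a2 probe, at base 3239, was likewise above background in Cy3 alone and had -0.13 ± 0.29. For these type VI genes a difference was not detectable at this signal, which does not show that there was none.

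Probes of 1 gene disagreed in the collagens. For Col1a1 the probe at base 3909 had signals of 160 (Cy5) and 115 (Cy3) in Lgr6-high cells, against 181 (Cy3) and 189 (Cy5) in Lgr5-high cells. Its ratio was -0.32 on array 1 and -0.86 on array 2, a bound of at least 1.51-fold, and the probe at base 228 was not well above background anywhere with 0.17 on array 2 and -0.18 on array 1. With the mean over both passing probes Col1a1 had -1.60 and was still called. For Col5a1 the probe at base 2823, with its glycine triplets, had signals of 178 (Cy5) and 130 (Cy3) in Lgr6-high cells, against 168 (Cy3) and 162 (Cy5) in Lgr5-high cells. Its ratio was 0.13 ± 0.16, so that 1 of the 10 passing probes did not have a negative ratio on both arrays. This probe passed the filter through the Lgr6-high cells alone. In Col1a1, Col3a1 and Col5a1 the probe with the most negative ratio was the one starting furthest along the reference transcript, at bases 4602, 4493 and 6263.

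Of the 19 probes, 9 were too dim to compare, and their mean ratios lay between -0.28 and 0.10. They included the remaining Col1a2 probe, on a separate cDNA (0.10 ± 0.15), both remaining Col3a1 probes (-0.24 ± 0.06 and 0.05 ± 0.19) and the remaining Dcn probe (0.05 ± 0.12). None of these measured either population, so they do not set a level for their genes. The part of probe position in these differences was not tested.

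**Figure D3:**
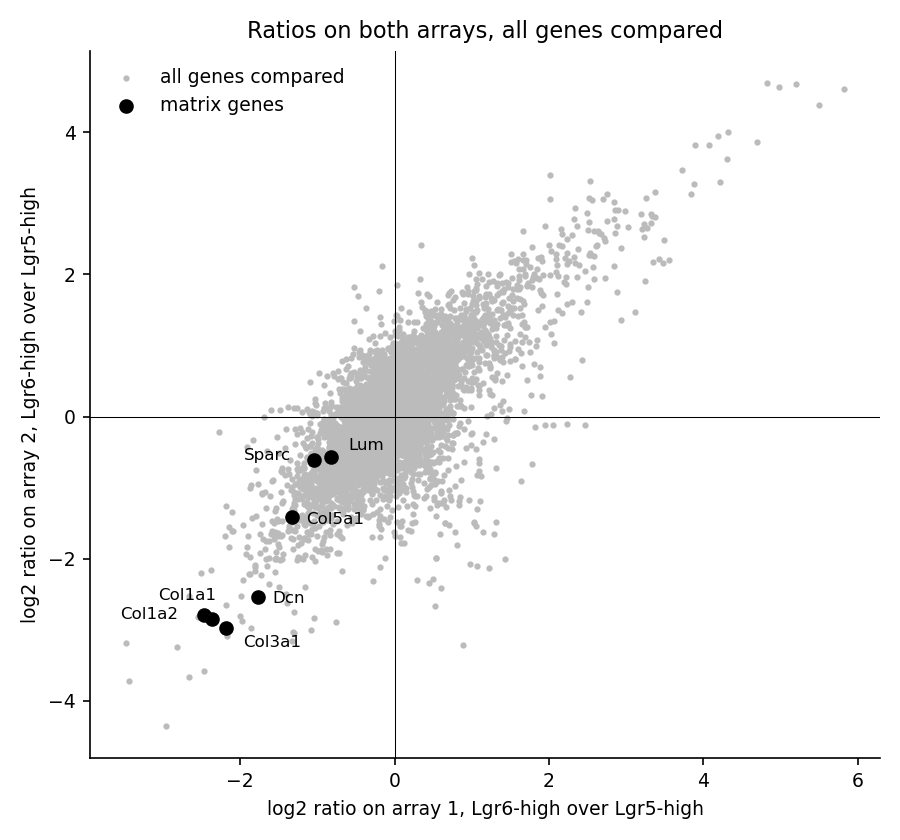
Log2 ratio of Lgr6-high over Lgr5-high on array 1 (horizontal) and array 2 (vertical) for the 6195 genes compared (grey) and the 7 matrix genes (black). After loess all 7 lie at lower left (Sparc is positive on array 2 with median centring), with Col1a1, Col1a2, Col3a1 and Dcn apart from the grey cloud and Lum and Sparc inside it.

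The scanner software's own ratios, which use another background model, were larger for every compared matrix gene. They were -5.59 ± 0.58 and -5.02 ± 0.53 for Col1a1 on arrays 1 and 2 (± the software's own error), and -5.22 and -6.91 for Col3a1. For Dcn they were -4.92 and -6.05, and for Sparc -1.79 and -1.21. With these ratios Lum (a mean of -3.20) and Sparc were called as well, and all 7 genes were on the Lgr5-high side. The size of the ratios depended on the background treatment. For Col1a1 it was -1.84 without background subtraction, -2.61 as reported and -3.54 with a normexp offset of 10 in place of 50. Over the settings tried it ran between -5.30 and -1.44 for Col1a1 and between -6.06 and -1.31 for Col3a1. With the background model fitted on all spots, outliers included, Col3a1 (-1.31) and Dcn (-1.05) were no longer called, and only Col1a1 and Col1a2 were. With the scanner's ratios 958 genes were called on each side, against 451 for Lgr6-high and 295 for Lgr5-high as reported.

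**Figure D4:**
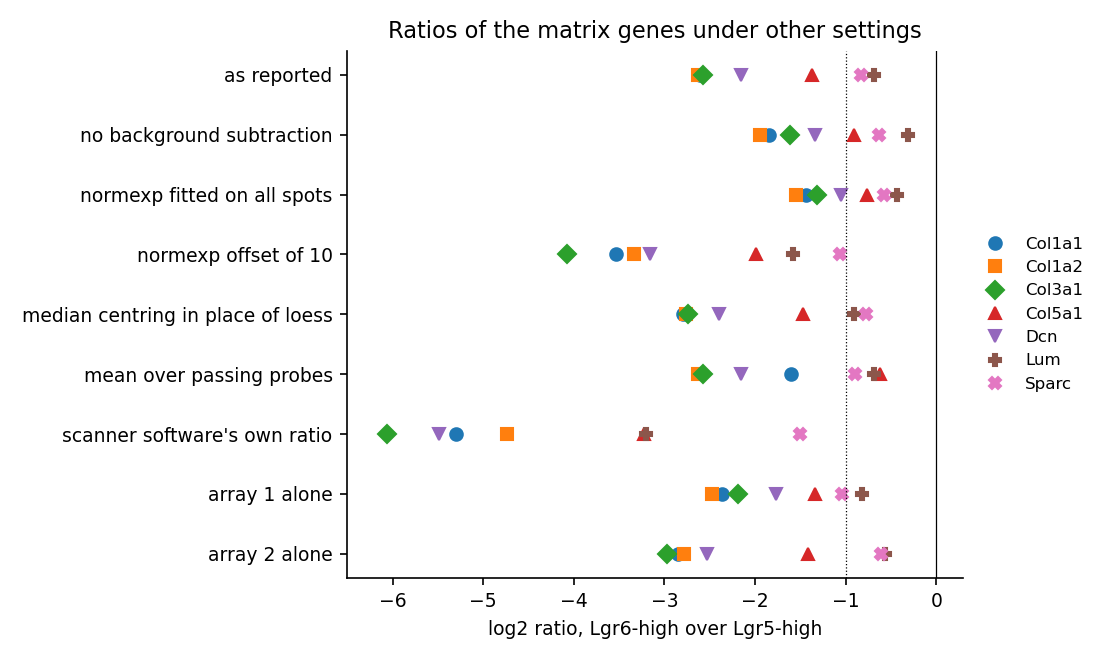
Log2 ratio of Lgr6-high over Lgr5-high of the 7 compared matrix genes under each setting, with a dotted line at the 2-fold minimum. The point nearest 0 is Lum at -0.32 without background subtraction, and the background treatment shifts Col1a1 widely, with -1.84 without background subtraction and -5.30 by the scanner's ratio.

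Several of the genes are neighbours in the genome. In the order of protein-coding genes of assembly GRCm38.p6, Col3a1 stands next to Col5a2 and Dcn next to Lum, and Col6a2 stands next to Col6a1. Of these pairs Dcn and Lum were both compared, and Dcn was called and Lum was not. Col5a2, Col6a1 and Col6a2 gave no value to set beside a neighbour's.

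RefSeq promoter sequences were given for 6 of the 10 genes, on GRCm38.p6. Those of the 3 called genes among them are shown because these genes differed in the same direction. Each runs 5′ to 3′ on the plus strand from 250 bases before the annotated start to 10 bases from it. Capitals mark matches, on either strand, to the CCAAT box. They also mark matches to GGGCGG, the core letters of a GC box, read likewise on both strands. The last motif searched was TATAA, the core letters of a TATA box, also on both strands.
Col1a2 promoter, chr6:4505368-4505627: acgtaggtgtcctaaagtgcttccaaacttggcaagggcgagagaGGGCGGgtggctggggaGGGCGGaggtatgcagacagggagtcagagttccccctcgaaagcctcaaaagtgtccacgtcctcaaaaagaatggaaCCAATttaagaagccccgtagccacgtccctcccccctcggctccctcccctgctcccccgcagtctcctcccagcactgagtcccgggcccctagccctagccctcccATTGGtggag
Col3a1 promoter, chr1:45311288-45311547: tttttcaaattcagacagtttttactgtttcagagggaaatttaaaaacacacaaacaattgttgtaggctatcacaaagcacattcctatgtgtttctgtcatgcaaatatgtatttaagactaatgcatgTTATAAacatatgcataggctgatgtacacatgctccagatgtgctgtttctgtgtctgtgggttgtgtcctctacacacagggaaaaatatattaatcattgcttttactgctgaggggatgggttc
Col5a1 promoter, chr2:27886175-27886434: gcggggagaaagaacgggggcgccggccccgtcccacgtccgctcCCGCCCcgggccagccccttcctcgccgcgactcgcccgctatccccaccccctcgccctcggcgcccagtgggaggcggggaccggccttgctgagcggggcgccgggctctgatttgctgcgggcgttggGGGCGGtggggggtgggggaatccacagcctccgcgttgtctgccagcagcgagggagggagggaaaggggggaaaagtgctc

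No motif was shared by all 3 windows. The Col1a2 window held CCAAT at base -109 from the annotated start, ATTGG at the start itself, and GGGCGG at bases -205 and -188. The Col5a1 window held GGGCGG at base -73 and CCGCCC at base -205, and the Col3a1 window held TTATA at base -118, which overlaps a TATAA at base -117. Among 32851 promoter windows of 260 bases, 34.6% held CCAAT, 33.4% GGGCGG and 23.3% TATAA in either orientation, so each match is common. A match is a description of letters, not a binding site.

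Genes that build or bind the collagen matrix were read from lists of names. Of 11 other interstitial collagens on the array only Col14a1, a collagen on the surface of fibrils, was compared. It was called for the Lgr5-high cells (at least 2.37-fold), with ratios of -0.93 and -1.75. Col14a1 passed the filter through the Lgr5-high cells alone, and it was not called from array 1 alone, without background subtraction or with the background model fitted on all spots. Among 30 further proteoglycan and glycoprotein genes 12 were compared, of which 5 were called for the Lgr5-high cells and 2 for the Lgr6-high cells, and the median was -0.74. The 5 were the microfibril gene Mfap2 (-3.03 ± 0.30), the fibulins Fbln2 (-1.78 ± 0.13) and Fbln1 (-1.53 ± 0.04), Efemp2 (-1.34 ± 0.47), whose product serves elastic fibre assembly, and the matrix Gla protein gene Mgp (-1.33 ± 0.09). The fibulin family gene Efemp1 (1.14 ± 0.36) and the tenascin gene Tnxb (at least 2.14-fold) were called for the Lgr6-high cells. Tnxb passed the filter through these cells alone, and Mfap2, Fbln2, Efemp2 and Mgp passed it through the Lgr5-high cells alone. Fbln1 and Efemp1 passed it through both populations. The counts and median of this list are thus a description only. Without background subtraction 0 genes of this list were called for the Lgr6-high cells and 3 for the Lgr5-high cells, and with the background model fitted on all spots 0 and 1. With both populations above background it was 1 for each.

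Genes that fold and process collagen formed a further list. Of 27 on the array 10 were compared, 2 were called, both for the Lgr5-high cells, and the median was -0.65. The number called was 0 with median centring, 1 without background subtraction, with the background model fitted on all spots or with both populations above background, and 5 with the scanner's ratio. The 2 were Serpinh1, the collagen chaperone of the endoplasmic reticulum (-1.40 ± 0.12), and Pcolce, which enhances removal of the C-terminal propeptide (-1.19 ± 0.27). Serpinh1 was well above background in both populations on both arrays, while Pcolce passed the filter on dim probes through the Lgr5-high cells alone. None of the 3 compared collagen receptor genes was called. The integrin chain Itgb1 had -0.02 ± 0.14, the collagen-activated kinase Ddr1 had 0.32 ± 0.01, and Cd44, chiefly a receptor of hyaluronan, had 0.80 ± 0.24.

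**Figure D5:**
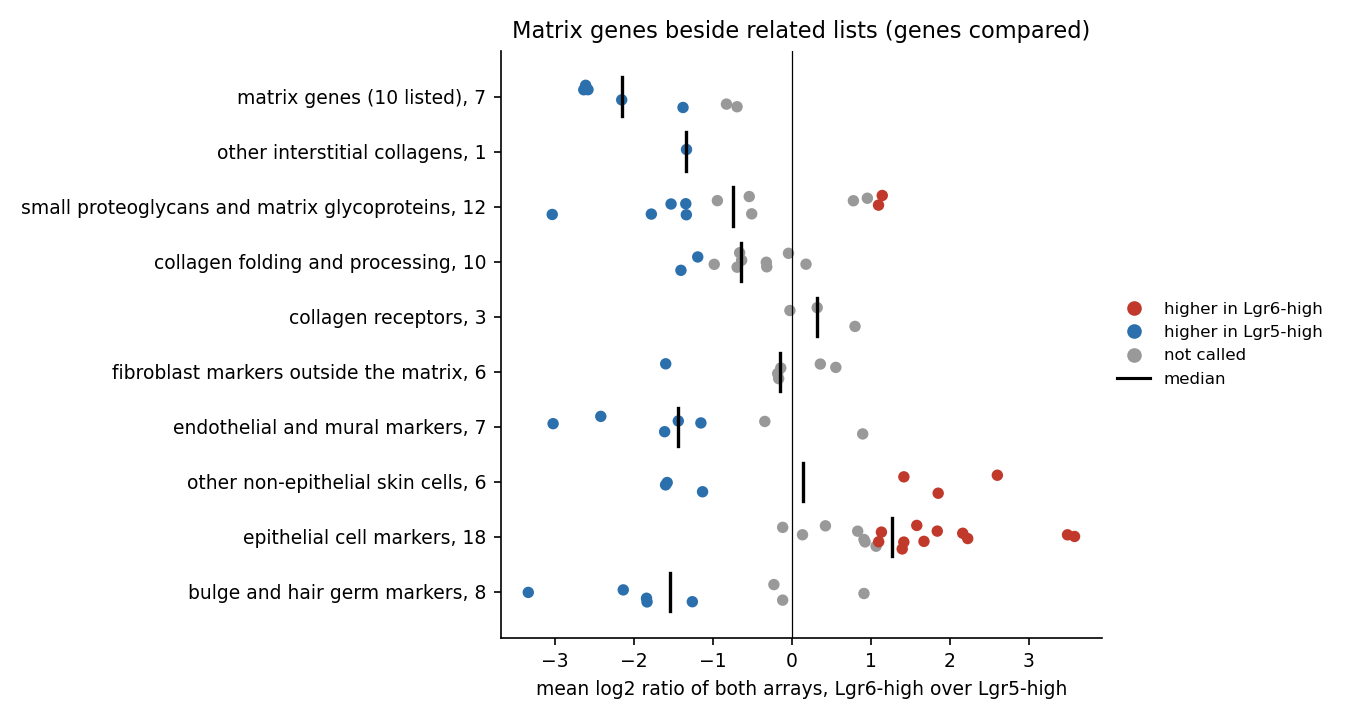
Mean log2 ratio of Lgr6-high over Lgr5-high for each compared gene of the matrix genes and of related lists (1 point a gene, number compared beside the name), red if called higher in Lgr6-high, blue if called higher in Lgr5-high, grey if not called, with a bar at each median. The matrix genes have a median of -2.15, the endothelial and mural markers -1.44 and the epithelial markers 1.27. Many genes passed the filter on dim probes through 1 population alone, so the medians are a description only.

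Markers of other cell types were read beside the matrix genes. Of 22 further fibroblast markers, which share Fbn1, a microfibril gene, with the list of matrix glycoproteins, 6 were compared, and of these S100a4, a calcium-binding protein, was the 1 called gene (-1.59 ± 0.58, higher in Lgr5-high cells), and the median was -0.15. With median centring S100a4 was not called. Not well above background anywhere were 15 of them, including the defining fibroblast genes Pdgfra, Pdgfrb, Fap, Twist1, Twist2 and Prrx1. Net signals (less local background, brightest probe of each gene) summed over this list in Cy3 to 6099 for Lgr6-high against 7234 for Lgr5-high cells, and in Cy5 to 1077 for Lgr6-high against 2490 for Lgr5-high cells. The same sums over the 10 matrix genes were 1188 for Lgr6-high against 5924 for Lgr5-high cells in Cy3, and 282 for Lgr6-high against 1325 for Lgr5-high cells in Cy5. Such sums are not normalised, set different arrays side by side within a dye and are led by the brightest genes. The part of fibroblasts in the matrix gene ratios was not tested.

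Of 21 endothelial and mural markers 7 were compared, and 5 were called, all for the Lgr5-high cells. Their median was -1.44 over the 7. The number called was 1 with the background model fitted on all spots, 2 with both populations above background and 3 without background subtraction. The called genes were Tagln (-3.02 ± 0.78) and Cnn1 (-1.44 ± 0.38), actin-binding genes of smooth muscle, the pericyte proteoglycan Cspg4 (-1.61 ± 0.55), the endothelial receptor modifier Ramp2 (-2.42 ± 0.33) and the endothelial Egfl7 (at least 2.19-fold). The 2 uncalled genes were the smooth muscle actin gene Acta2 (0.90 ± 0.42, on the Lgr6-high side) and Mcam (-0.34 ± 0.05). Acta2, Tagln and Cspg4 were well above background in both populations on both arrays. Ramp2, Cnn1, Egfl7 and Mcam passed the filter on dim probes through the Lgr5-high cells alone. The count and median of this list are thus a description only. With the scanner's ratio 1 gene of the list was called for the Lgr6-high cells and 6 for the Lgr5-high cells. Not well above background anywhere were 13 genes of the list, the endothelial genes Pecam1, Cdh5 and Kdr and the mural genes Myh11, Rgs5 and Des included. The list's net signals in Cy3 summed to 4423 for Lgr6-high against 7301 for Lgr5-high cells, and in Cy5 to 878 for Lgr6-high against 2181 for Lgr5-high cells. None of 17 dermal papilla markers was compared. The part of these cells in the matrix gene ratios was not tested.

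Epithelial markers were compared in the same way. Of 18 compared epithelial markers 11 were called, all for the Lgr6-high cells, and the median was 1.27. These were Krt1, Krt10, Ovol1, Cdh1, Dsp, Pkp1, Perp, Sfn, Itga6, Itgb4 and Col17a1, genes of keratins, junctions and hemidesmosomes among them, with ratios up to 3.58 (Krt10). The number called was 3 with median centring, 5 with the background model fitted on all spots and 7 without background subtraction, and 15 with the scanner's ratio. On both arrays 17 epithelial markers were above background for Lgr6-high cells and 16 for Lgr5-high cells, so both sorts held epithelial RNA. Their net signals in Cy3 summed to 555572 for Lgr6-high against 175956 for Lgr5-high cells, and in Cy5 to 76919 for Lgr6-high against 47716 for Lgr5-high cells. Of 8 compared bulge and hair germ markers 5 were called for the Lgr5-high cells, namely Lgr5, Cd34, Lhx2, Tcf7l1 and Tbx1, with ratios between -3.33 and -1.26. Yet the net signals of this list, which shares Krt15 with the epithelial markers, summed in Cy3 to 113361 for Lgr6-high against 41731 for Lgr5-high cells. In Cy5 they summed to 13220 for Lgr6-high against 13907 for Lgr5-high cells. The sums thus need not follow the calls. Among the called markers of this list, Lgr5 and Tcf7l1 passed the filter on dim probes through the Lgr5-high cells alone. Of 6 compared markers of other skin cells, the Schwann cell genes Pmp22, Mbp and Ngfr were called for the Lgr6-high cells (1.42 to 2.60), and Hba-a1 and Hbb-bt, genes of haemoglobin, and the melanocyte gene Dct for the Lgr5-high cells (-1.60 to -1.13). Mbp and Ngfr passed the filter through the Lgr6-high cells alone, and Dct through the Lgr5-high cells alone. Of the genes that named the sorts, Lgr5 was higher in Lgr5-high cells (-1.83 ± 0.12) and Lgr6 was too dim to compare.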

How the data were processed

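The data are 2 dye-swapped two-colour Agilent arrays of RNA from sorted mouse dorsal skin cells. The authors deposited the intensity of each spot and its local background per channel, extracted with Agilent Feature Extraction (10.5.1.1 per the file headers, 9.5.3 per the submitters' processing notes). Those deposited tables also give its log10 ratio of Cy5 over Cy3 with its error, and the authors' value table holds log10 ratios that equal it on array 1 and, with the sign turned, on array 2. Its direction is thus Lgr6-high over Lgr5-high, and each column's median was 0. Before turning, the arrays' scanner ratios had a Pearson r of -0.447.

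Here limma 3.58.1 (R 4.3.3) corrected the background by normexp with an offset of 50, fitted without marked outlier spots (139 and 204 probe spots), and normalised by loess within each array, controls at weight 0. Of 45018 spots per array 43379 were probe spots, and none was saturated. On arrays 1 and 2, 31.6% and 33.3% of probe spots were well above background in Cy3, and 15.3% and 16.2% in Cy5, which limits the precision of dim genes. Spots were averaged per probe. A probe was compared if well above background for at least 1 population on both arrays, and the brightest passing probe stood for its gene. Across genes, the arrays' ratios had a Pearson r of 0.749 and a median SD of 0.23.

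Probes were named by accession (25082), symbol (6329) or synonym (1640) through a RefSeq table of GRCm38.p6, and members by the name in the file. The calls follow a rule of size, not a test, and limma's fit was an alternative whose spread is that between hybridisations only. Other lists were read by name. Every called gene of a list is named. Uncalled genes get values where at most 5 were compared, for the endothelial and mural markers, and for Krt5, Krt14 and Krt15. Some genes sit in several lists. The members, lists and settings were chosen with earlier results of these data known. The pipeline was tested on simulated data, with changes put into bright spots only. That test did not cover signals near background, where most Lgr6-high signals of the matrix genes lay.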

Additional observations from a re-analysis of the deposited data

How the results depend on the processing

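With array 2 alone (without array 1), array 1 alone, and as reported, the number of matrix genes called higher in Lgr5-high cells was 5, 6 and 5, and their median ratio was -2.53, -1.77 and -2.15. All genes called ranged between 434 and 611 for Lgr6-high and between 315 and 471 for Lgr5-high cells from single arrays. Called for Lgr6-high and Lgr5-high cells were 958 and 958 genes with the scanner's ratio or the authors' value table, 134 and 57 with median centring, 124 and 151 with normexp fitted on all spots, 212 and 204 without background subtraction, and 725 and 481 with a normexp offset of 10, a setting chosen after seeing the data. The matrix genes' median was -4.74 with the scanner's ratio or the value table, -3.16 with the offset of 10, -1.60 as a mean over passing probes, -1.34 without background subtraction, -1.10 without the filter on dim probes (10 genes), -1.05 with normexp on all spots and -0.83 with both populations above background (1 gene, Sparc). The number called was 2 with normexp on all spots and 0 with both populations above background. It was 4 without background subtraction, with median centring and over passing probes, 5 with limma and without the filter, and 7 with the scanner's ratio, the value table and the offset of 10. No mean ratio of a matrix gene changed sign, although Sparc did on array 2 with median centring. The cause of these shifts was not tested. Each ratio already sets the populations side by side on 1 array, and with 1 replicate no further block could be fitted. Counts for the other gene lists stand beside them in the text for some of these settings only. With the scanner's ratio, 1 collagen receptor gene was called for Lgr6-high and 0 for Lgr5-high cells. It was 1 and 1 for the fibroblast markers, and 3 and 8 for the proteoglycan and glycoprotein genes. For bulge and hair germ markers the 5 called for Lgr5-high cells became 2 with median centring. They became 3 with normexp on all spots or with both populations above background. For other skin cells the 3 called for Lgr6-high and 3 for Lgr5-high cells became 1 and 1 with normexp on all spots, 2 and 1 with median centring or no background subtraction, and 1 and 2 with both populations above background. Depth is set by signal over background, and in Cy5 most Lgr6-high values of these genes lay at background.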
